A study of Mus musculus with 49 samples.

Results

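Bone marrow-derived macrophages of wild-type (WT) C57BL/6 mice were compared after 16 h of lipopolysaccharide with the same kind of cells left untreated. The comparison holds the 3 WT libraries labelled 16 h and the 3 WT libraries labelled 0 h, which are 6 of the 18 macrophage libraries and 6 of the 49 samples of the series. The macrophages were grown for 7 days with M-CSF (macrophage colony-stimulating factor), and lipopolysaccharide (LPS) was given at 100 ng/ml; the 0 h libraries received none, and the labels give neither age nor sex of the mice. The 3 WT libraries at 4 h of LPS served to place the 16 h levels in time, and 6 libraries of Elf4 knockout (KO) macrophages at 0 and 16 h are set beside the WT values. No allele other than Elf4 is named in these groups. All groups were raised in the same growth factor, so the untreated group is a bone marrow culture supplied with M-CSF and not a tissue macrophage. Poly(A) RNA was sequenced, and the values are CPM, read counts of a gene scaled to a library of fixed size.

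LPS is the outer-membrane lipid of Gram-negative bacteria and is sensed by TLR4 together with MD-2 and CD14. TLR4 signals through MyD88 to NF-kB and MAP kinases, which drive inflammatory cytokines, and through TRIF to IRF3, which drives interferon beta. Interferon beta then acts on the same and neighbouring cells and switches on the interferon-stimulated genes. Over the following hours macrophages limit the first wave with inhibitors such as A20, IL-10 and SOCS3, stop dividing, and change how they use glucose, arginine, lipids and iron.

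The 6 libraries rest on 12.4 to 14.9 M reads at 0 h and 14.0 to 15.2 M reads at 16 h, read from the step between small CPM values. Within a time the libraries correlated at 0.9938 to 0.9958 across genes (log2 scale), and between the times at 0.8371 to 0.8523. The macrophage identity of the label was checked on 12 markers. Their summed level was 21940 to 23730 CPM at 0 h and 22170 to 23430 CPM at 16 h, and none was under 1 CPM. The single markers were not steady. In the test described below, 6 of the 12 were called higher and 6 lower (6 and 1 on the rescaled values). Their log2 differences ran from -2.53 to 2.88. Lyz2 alone gave a mean of 13012 CPM at 0 h and 8806 CPM at 16 h. Of 14 stromal markers, including collagen genes, the sum was 510.8 to 918.2 CPM at 0 h and 600.0 to 1095 CPM at 16 h. Sums of 6 B cell, 8 erythroid and 5 mast cell markers found in the table stayed at or under 2.76 CPM in each library of both times. The 5 endothelial markers in the table summed to 53.3 to 68.2 CPM at 0 h and 50.1 to 66.4 CPM at 16 h, and 4 T cell and NK cell markers to 9.94 to 14.5 and 3.37 to 4.7 CPM. Of the endothelial markers 4 were tested, with log2 differences from -2.22 to 3.85, and 3 were called higher and 1 lower. The 9 dendritic cell markers summed to 257.7 to 331.2 CPM at 0 h and 1008 to 1070 CPM at 16 h, carried by Bst2, itself an interferon-stimulated gene, with 8 and 6 of the 9 under 1 CPM. Elf4 itself was at 96.4, 108 and 112 CPM in the untreated WT libraries and at 22 ± 3.23 CPM (SD, n = 3) in the untreated KO libraries; where the deletion lies is not given in the sources used here, so the reads left in KO libraries cannot be placed inside or outside the deleted part.

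Of 12058 genes that reached 1 CPM in 3 or more of the 18 libraries, 2203 (18.3%) were called higher and 6818 (56.5%) lower at 16 h (limma on log2(CPM + 1), two-sided, Benjamini-Hochberg adjusted p below 0.05). The median log2 difference of all tested genes was -0.41. When the libraries were rescaled so that the median gene ratio between them is equal (median-ratio scaling), the values of a typical gene moved up by 0.44 and the median became -0.0029. On that scale 4034 genes (33.5%) were called higher and 4085 (33.9%) lower, and the share of calls that were higher went from 24.4% to 49.7%. The scaling factors were 1.34 to 1.38 at 0 h and 0.983 to 1.00 at 16 h. The 20 genes with the most reads took 11.6 to 12.3% of the CPM at 0 h and 13.7 to 14.3% at 16 h. In total 194 genes were called lower on the deposited scale and higher after scaling. A stricter count holds on both scales: 993 genes (8.24%) rose and 1545 (12.8%) fell with a log2 difference of at least 1 in size on each. Of these, 99 rose and 146 fell by at least 16-fold on the deposited scale. Without any test, all 3 libraries at 16 h lay above all 3 untreated ones in 20.9% of tested genes and under them in 60.3%. The summed CPM of the 993 risen genes went from 67082 to 298280, and that of the 1545 fallen genes from 118000 to 23146. RNA was taken from whole cultures, so fewer cells of a type and less RNA per cell cannot be told apart. Counts of list members are given on the deposited scale and then on the scaled one, and each is to be read against these shares of all genes. A value in brackets after a gene is its log2(CPM + 1) difference, 16 h minus 0 h, and ± on such a value is its standard error; ± on a CPM value is the SD of 3 libraries.

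**Figure D1:**
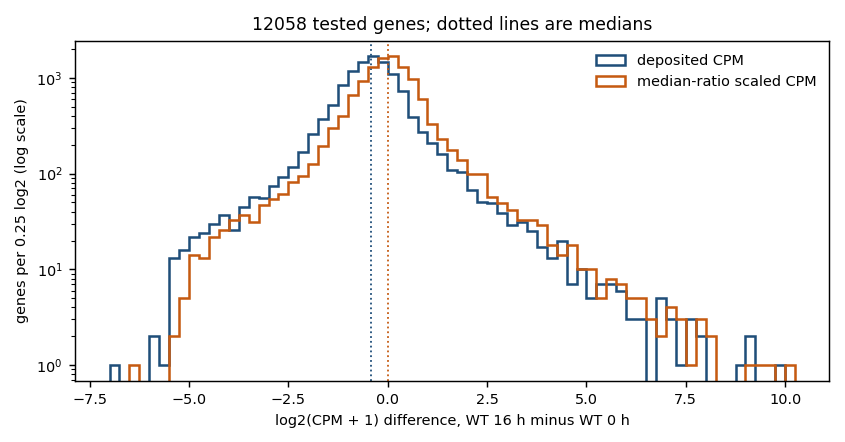
Histogram of the log2(CPM + 1) difference between 16 h and 0 h (x axis) over 12058 tested genes, with genes per bin of 0.25 on a log y axis. The deposited values centre at -0.41 and the median-ratio scaled values at -0.0029, and both have a longer tail to the right.

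The largest rises were in acute-phase, interleukin-1 and itaconate genes. Lcn2, which encodes the iron-siderophore scavenger lipocalin-2, was at 1.04, 0.917 and 1 CPM in the 3 untreated libraries and at 1968, 2217 and 1794 CPM at 16 h. Its log2 difference of 9.97 ± 0.29 (SE) was the highest among the named genes averaging 5 CPM or more over the 6 libraries (adjusted p = 7.94e-15). Saa3, an acute-phase serum amyloid A gene, was at 30.9, 31.6 and 17.5 CPM untreated and at 14864, 18219 and 15190.0 CPM at 16 h, a log2 difference of 9.22 ± 0.27 (adjusted p = 8.85e-15). Among the named genes, the largest gain in CPM after that of Fth1 was that of Saa3. Acod1, whose enzyme makes itaconate from a TCA cycle intermediate, went from 4.5, 6.88 and 3.74 to 3295, 3207 and 3211 CPM (9.10 ± 0.20, adjusted p = 2.18e-16). The 15 largest rises were those of Lcn2, Saa3, Acod1, Il1b, Ptges, Ifit1bl1, Fpr1, Nos2, Cd38, Il1rn, Il1a, Socs3, Arg1, Cxcl9 and Hp, with log2 differences from 6.96 to 9.97. These 15 were picked from genes of the stricter count whose lowest 16 h library stood above the highest untreated one. The lack of overlap was thus a condition of the choice and not a result.

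The largest fall was that of a lipid mediator enzyme, and 6 of the 15 largest were in members of the mitosis and replication lists. That 6 counts list members only, and cell cycle genes outside the lists were not counted. Hpgd, which inactivates prostaglandins, was at 149, 204 and 177 CPM untreated and at 1.07, 0.33 and 0.207 CPM at 16 h (-6.88 ± 0.20, adjusted p = 7.16e-15). The others of the 15 were Ccna2, Pclaf, Rasgrp3, Rrm2, Aspm, Cenpf, Top2a, Kif11, St6gal1, Pbk, Racgap1, Cdca3, Pimreg and Stmn1, with log2 differences from -5.84 to -5.27. Rasgrp3, an activator of Ras-family GTPases (57.4 ± 1.59 to 0.181 ± 0.0715 CPM), and St6gal1, a sialyltransferase (88.8 ± 8.45 to 1.18 ± 0.41 CPM; both SD, n = 3), are among those in neither list. Pclaf, Aspm, Pbk, Cdca3, Pimreg and Stmn1 are also in neither list. Here too, membership in the stricter count and no overlap between the times were conditions for picking the 15 genes.

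The LPS receptor Tlr4 fell while its co-receptors rose. Tlr4, the signalling receptor, was at 222, 214 and 219.9 CPM untreated and at 106, 95.9 and 105 CPM at 16 h, a log2 difference of -1.09 ± 0.07 (adjusted p = 4.15e-10; -0.63 after scaling). Cd14 rose from 466 ± 50.4 to 1031 ± 66 CPM (1.15, adjusted p = 3.74e-09) and Ly96, which encodes MD-2, from 8.54 ± 1.15 to 19.3 ± 1.91 CPM (1.09, adjusted p = 8.03e-07). Of 21 Toll-like receptor and adaptor genes 13 were called higher and 5 lower (14 and 4 after scaling), with a list median of 0.39 beside -0.41 for all genes. Tlr1, the partner of TLR2, rose by 2.34 and Myd88, the shared adaptor, by 1.36. Irak2, a kinase that sustains late signalling, rose by 1.61, and Tlr3, the receptor of double-stranded RNA, by 1.55 (largest adjusted p of the 4 = 3.65e-09). Irak4 (-0.22, adjusted p = 0.0735) and Tlr7 (-0.23, adjusted p = 0.0951) did not pass the test on either scale. On the deposited scale both were called lower when the fit held only the 6 compared libraries (adjusted p = 0.0144 and 0.00465). After scaling their differences were positive (0.23 and 0.23), so the direction rests on the scale.

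Of 8 NF-kB subunit and regulator genes 4 were called higher on the deposited scale and all 8 after scaling, and most brakes on the pathway rose. Nfkb2 rose from 54.7 ± 6.54 to 216 ± 0.529 CPM (1.97) and Relb, its dimer partner, from 19.9 ± 4.3 to 70.4 ± 4.19 CPM (1.79). Rel and Rela, subunits of the classical dimers, stood at log2 differences of -0.01 (adjusted p = 0.964) and 0.04 (adjusted p = 0.62); after scaling these were 0.45 and 0.50, and both were then called. Of 18 brakes on NF-kB and TLR signalling, 13 were called higher and 4 lower (14 and 1 after scaling), with a median of 2.63. Tnfaip3, which encodes the ubiquitin editor A20, was at 18.5, 20.1 and 18.2 CPM untreated and at 214, 201 and 220.2 CPM at 16 h (3.42 ± 0.12, adjusted p = 6.45e-14). It had been at 1970.2 ± 17.7 CPM at 4 h, -3.21 on the log2 scale for 16 h minus 4 h (adjusted p = 1.45e-13). Irak3, a kinase-dead inhibitor of TLR signalling, went the other way in time: 26.1 ± 1.28 CPM untreated, 64 ± 9.65 CPM at 4 h and 295 ± 18.3 CPM at 16 h (16 h minus 4 h 2.19, adjusted p = 7.27e-12). Dusp2 (4.25), Nfkbiz (3.81), Zc3h12a (3.47) and Nfkbia (3.19) were also called higher at 16 h. Of the 4 members called lower on the deposited scale, Cyld, a deubiquitinase, turned higher (-0.22 and 0.23; on the deposited scale -0.18 without 16 h replicate 3, adjusted p = 0.0671) and only Sigirr stayed called lower after scaling (-0.88 and -0.66).

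Il1b, Il6, Tnf and Il12b were all still above untreated cells at 16 h, and Il6, Tnf and Il12b were well under their 4 h level. Il1b was at 2.65, 4.05 and 3.07 CPM untreated, at 1915, 2478 and 2517 CPM at 4 h and at 1928, 1856 and 1894 CPM at 16 h. The 16 h group lay above the untreated group without overlap (8.81 ± 0.24, adjusted p = 3.32e-15), while the 16 h and 4 h levels differed by -0.27 (adjusted p = 0.313). After scaling that last difference was -0.72 (adjusted p = 0.0137). Il6 was at 0.402, 0.229 and 0.267 CPM untreated, at 871, 946 and 900.1 CPM at 4 h and at 24.1, 21.6 and 19 CPM at 16 h, still above the untreated libraries (4.11 ± 0.23, adjusted p = 2.79e-11) but -5.33 on the log2 scale against 4 h (adjusted p = 1.07e-12). Tnf was at 11.2, 13.1 and 10.2 CPM untreated, 1572 ± 206 CPM at 4 h and 199, 169.8 and 177 CPM at 16 h (3.87 ± 0.22, adjusted p = 2.84e-11). Il12b, the shared subunit of IL-12 and IL-23, stood at 0.435 ± 0.147, 993 ± 86.3 and 40.5 ± 3.45 CPM at 0, 4 and 16 h. Csf3, which encodes the granulocyte growth factor G-CSF, was higher at 16 h than at 4 h (0.0256 ± 0.0441, 5.68 ± 1.86 and 17.7 ± 2.09 CPM; 16 h minus 4 h 1.51, adjusted p = 0.000383).

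Of 17 tested cytokine genes 14 were called higher and 0 lower at 16 h than untreated (15 and 0 after scaling; 1 lower with the replicate block), with a median of 2.16. Against 4 h, 14 of the 17 were lower and 2 higher, beside 22.1% and 51.0% of all tested genes. Ifnb1, the gene of interferon beta, was at 0.0001, 0.0765 and 0.0668 CPM untreated, 13.5 ± 1.01 CPM at 4 h and 0.284, 0.132 and 0.207 CPM at 16 h; its log2 difference of 0.20 from untreated did not pass the test (adjusted p = 0.448). Il23a and Csf2 did not reach the filter on low values, and Il36g was not analysed here.

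Several antagonists of inflammation were among the genes with large rises. Il1rn, the secreted blocker of the IL-1 receptor, was at 23.4, 17.1 and 23.2 CPM untreated and at 3924, 3408 and 3659 CPM at 16 h (7.38 ± 0.15, adjusted p = 1.29e-16), and differed from 4 h by 0.25 (adjusted p = 0.152). Tnfrsf1b, which encodes TNF receptor 2, rose from 227 ± 19.9 to 3550.0 ± 38.5 CPM (3.97, adjusted p = 8.87e-14). Cd274, which encodes the checkpoint ligand PD-L1, rose from 12.5 ± 2.68 to 785 ± 37.1 CPM (5.88), and Il18bp, the decoy of IL-18, from 8.77 ± 3.26 to 128 ± 7.88 CPM (3.77). Il10 was at 2.87 ± 0.433 CPM untreated and 20.4 ± 2.42 CPM at 16 h (2.47 ± 0.16, adjusted p = 2.98e-10), after 472 ± 31.5 CPM at 4 h (16 h minus 4 h -4.47, adjusted p = 1.76e-13). The untreated and 16 h libraries of these 5 genes did not overlap. Havcr2, which encodes the checkpoint receptor TIM-3, fell from 40.1 ± 2.38 to 11 ± 1.41 CPM (-1.78), and Sirpa (0.02, adjusted p = 0.798; 0.49 after scaling, where it was called) was close to its untreated CPM. In the list, 7 of 14 were called higher and 4 lower (10 and 3 after scaling).

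**Figure D2:**
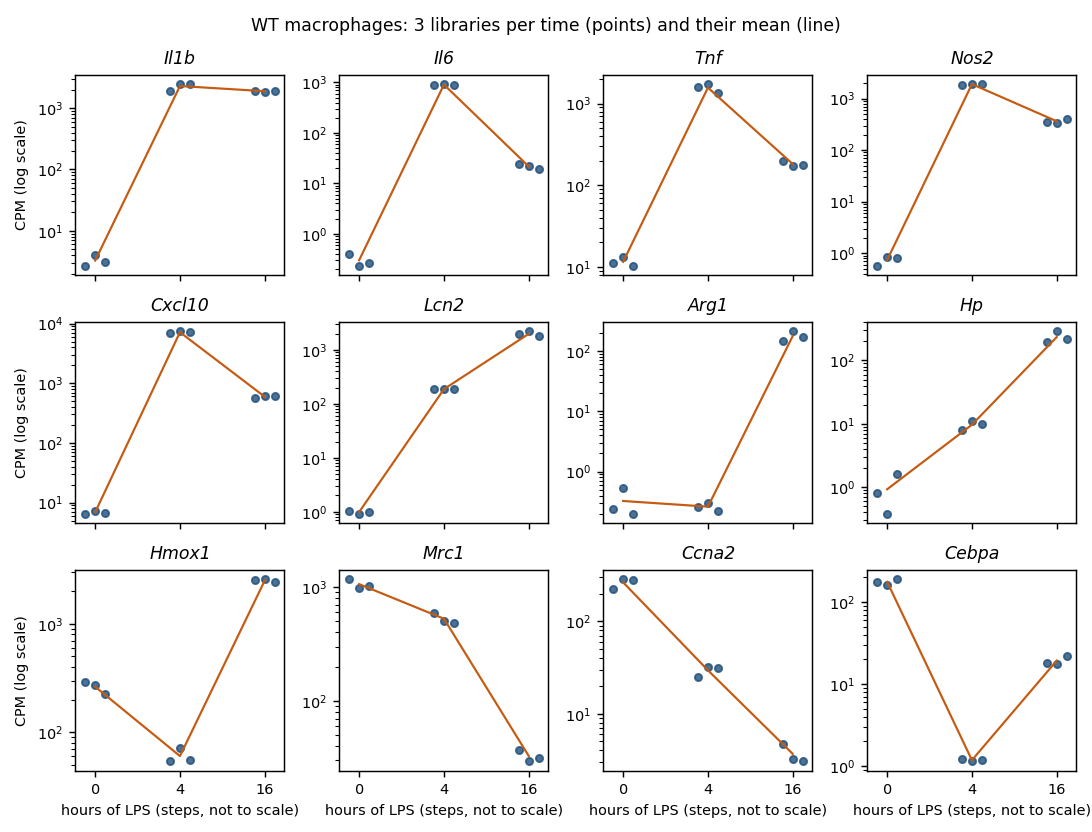
CPM on a log y axis for 12 genes in WT macrophages at 0, 4 and 16 h of LPS, with each of the 3 libraries of a time as a point and the line through the means. Il6, Tnf, Nos2 and Cxcl10 are lower at 16 h than at 4 h, Lcn2, Arg1, Hp and Hmox1 are higher, Mrc1 and Ccna2 are lowest at 16 h, and Cebpa is lowest at 4 h.

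Most chemokine genes rose, with the ligands of CXCR3, the receptor of activated T cells, among the largest. Cxcl9 was at 0.482, 0.459 and 0.334 CPM untreated and 184, 174 and 174 CPM at 16 h (6.97 ± 0.24, adjusted p = 7.55e-14). Cxcl10 went from 6.5, 7.34 and 6.81 to 557, 613 and 611 CPM (6.24 ± 0.20, adjusted p = 3.02e-14), after 7168 ± 225 CPM at 4 h. All 3 CXCR3 ligands, 4 of 6 neutrophil chemokine genes and 10 of 14 other chemokine genes were called higher, on both scales alike. Ccl5, which attracts T cells and monocytes, rose from 72.3 ± 29.5 to 3814 ± 245 CPM (5.77, adjusted p = 1.4e-11) and was higher than at 4 h (1.05, adjusted p = 0.00483; 0.60 and 0.107 after scaling). Ccl7 (5.85) and Cxcl2 (5.47), ligands for monocytes and neutrophils, rose as well. Pf4 (-1.06, adjusted p = 2.32e-06) and Ccl6 (-1.62, adjusted p = 1.08e-07) fell on both scales, while Cx3cl1 (-0.22, adjusted p = 0.592) and Ppbp (-0.29, adjusted p = 0.39) did not pass.

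The promoter of Cxcl10 is shown because it is the member with the largest change, among the neutrophil chemokines, CXCR3 ligands and acute-phase genes, that holds the motif of the NF-kB family searched here (10 letters with degenerate positions, both strands) in its RefSeq window. The run covers GRCm38.p6 chr5:92348860-92349139, minus strand, written 5′ to 3′ from 250 bases before the transcript start to 30 bases after it. Capitals mark the motif, which matched at positions 92, 147 and 148 counted from the first base, the last pair overlapping.
Cxcl10: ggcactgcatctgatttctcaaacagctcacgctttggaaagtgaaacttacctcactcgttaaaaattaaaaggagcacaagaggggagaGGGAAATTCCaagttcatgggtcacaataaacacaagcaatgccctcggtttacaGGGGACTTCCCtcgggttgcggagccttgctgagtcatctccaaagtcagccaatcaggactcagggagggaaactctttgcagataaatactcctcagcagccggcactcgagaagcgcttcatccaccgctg
The motif was found in 6 of the 19 genes of these lists that have a window (31.6%) beside 12.4% of the 9623 tested genes that have one; counted by window, 8.46% of all 32851 RefSeq windows of 300 bases hold it. The share of the lists covers members with a window whether tested or not. Chil1 holds the motif but did not reach the filter on low values, so it is not among the tested genes. A match is a description of the letters and was not tied to binding here.

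Receptors on the responding cell were mixed. Fpr1, the receptor of bacterial formyl peptides, was at 1.77, 2.29 and 0.667 CPM untreated and 529.6, 579 and 481 CPM at 16 h (7.74 ± 0.28, adjusted p = 1.52e-13), and Fpr2 went from 2.07 ± 0.532 to 257 ± 12.5 CPM (6.41). Both were higher than at 4 h (16 h minus 4 h 3.45 and 1.01, adjusted p = 4.71e-09 and 1.93e-06). Cxcr4, the receptor that retains cells in bone marrow, fell from 127, 156 and 166 to 9.23, 7.92 and 9.66 CPM (-3.91 ± 0.31, adjusted p = 2.96e-09). Cx3cr1 (-1.94) and Ccr2 (-1.63), both monocyte receptors, fell too. Of 13 chemokine and complement peptide receptors 8 were called higher and 5 lower on both scales. Of 20 purinergic, adenosine and other G-protein receptors, 10 were called higher and 7 lower (12 and 5 after scaling). Gpr84, a receptor of medium-chain fatty acids, rose by 4.64 and Adora2a, the adenosine receptor that restrains inflammation, by 4.27, while S1pr1 fell (-2.07; largest adjusted p of the 3 = 2.49e-07).

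Most acute-phase and alarmin genes were higher at 16 h than untreated, and against 4 h 6 of 13 were higher and 2 lower (5 and 3 after scaling), beside 51.0% and 22.1% of all tested genes (33.0% and 36.6%). Hp, which encodes haptoglobin, the scavenger of free haemoglobin, was at 0.803, 0.382 and 1.6 CPM untreated, 8.06, 11 and 10.0 CPM at 4 h and 197, 288 and 217 CPM at 16 h. Most of its rise came after 4 h (16 h minus 4 h 4.45, adjusted p = 9.69e-10; 16 h minus 0 h 6.96 ± 0.32, adjusted p = 2.78e-12). Marco, a scavenger receptor for bacteria, was at 3.37, 8.56 and 5.6 CPM untreated and at 78.4, 214 and 174 CPM at 16 h (4.47 ± 0.42, adjusted p = 3.34e-08); the 16 h libraries spread widely but all lay above the untreated ones. S100a8, an alarmin, rose from 1.95 ± 0.729 to 30.1 ± 6.06 CPM (3.41), whereas its partner S100a9 stood at 1.53 ± 0.371 and 1.01 ± 0.324 CPM (-0.34, adjusted p = 0.588). The 10 neutrophil markers in the table moved beside these genes: their summed level was 41.81 to 56.37 CPM at 0 h and 223.9 to 230.8 CPM at 16 h. The sum was carried by Csf3r (20.2 ± 1.11 CPM untreated, 168 ± 5.64 CPM at 16 h) and Mmp8 (27 ± 6.6 CPM untreated, 58.1 ± 2.97 CPM at 16 h), with 7 of the 10 under 1 CPM at 0 h and 8 at 16 h, and their part in the result was not tested. Of 13 tested acute-phase and alarmin genes 9 were called higher and 0 lower (10 and 0 after scaling; 1 lower with the replicate block).

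Among complement genes Cfb and C3 rose, and the C1q genes fell. Cfb, factor B of the alternative pathway, went from 27.8, 11.4 and 14.3 to 1878, 1985 and 1914 CPM (6.77 ± 0.38, adjusted p = 3.03e-11) and C3, the central component, from 123, 122 and 117 to 1847, 2179 and 1848 CPM (4.01 ± 0.17, adjusted p = 6.96e-13). C1qa (-1.17), C1qb (-0.80) and C1qc (-1.08), which form the recognition molecule of the classical pathway, fell together, also after scaling (-0.70, -0.34 and -0.62). In all, 5 of 12 were called higher and 4 lower (8 and 4 after scaling).

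Every tested interferon-stimulated gene was higher at 16 h. All 41 tested members of 42 were called higher on both scales with a log2 difference of at least 1, beside 8.24% of all tested genes, and the list median was 2.27 (2.73 after scaling). Ifit1bl1, a member of the IFIT family of RNA-binding antiviral genes, was at 2.09, 1.15 and 2.2 CPM untreated and 650.4, 536 and 606 CPM at 16 h (7.75 ± 0.31, adjusted p = 4.6e-13). Isg20, an exonuclease, rose from 3.3 ± 0.801 to 241 ± 10.8 CPM (5.83). Mx1, a GTPase gene, rose from 9.84 ± 4.94 to 371 ± 28.3 CPM (5.20). Rsad2, which encodes viperin, was at 11958 ± 544 CPM at 4 h and 1802 ± 73.4 CPM at 16 h (5.04 against untreated and -2.73 against 4 h, adjusted p = 3.48e-11 and 1.24e-07). Against 4 h, 27 of the 41 were lower and 6 higher at 16 h (31 and 2 after scaling). Reads of near-identical family members (Ifit, Oas, Gbp, Tgtp, Saa, H2-Q, Hspa1, ferritin and ribosomal protein genes) can be split in counting in a way not given in the sources used here, so single members of these families are uncertain.

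The promoter of Ifit1bl1 is shown for the interferon-stimulated genes. It lies at GRCm38.p6 chr19:34601939-34602218, minus strand, with 250 bases before and 30 after the start, and it is 1 of 2 windows of the gene. Capitals mark the interferon-stimulated response element searched, 2 GAAA blocks with any 2 bases between them on either strand, here on the opposite strand from position 147.
Ifit1bl1: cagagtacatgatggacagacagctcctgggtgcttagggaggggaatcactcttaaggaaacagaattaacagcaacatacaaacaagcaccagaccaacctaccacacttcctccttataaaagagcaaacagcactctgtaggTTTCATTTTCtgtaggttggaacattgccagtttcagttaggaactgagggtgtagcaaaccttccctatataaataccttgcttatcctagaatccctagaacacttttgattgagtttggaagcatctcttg
The element was found in 17 of the 31 genes of the list that have a window (54.8%), in 4.16% of tested genes with a window and in 3.44% of all windows.

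Guanylate-binding proteins and immunity-related GTPases, which attack vacuoles of intracellular pathogens, rose in all 16 tested members, with a median of 4.36. Gbp2 was at 27, 16.8 and 23.7 CPM untreated and 1078, 887 and 1007 CPM at 16 h (5.42 ± 0.23, adjusted p = 1.1e-12). Gbp6 (5.75), Gbp5 (5.22) and Iigp1 (4.94) had similar sizes. Of 7 Schlafen genes, 5 rose, led by Slfn1 (5.97) and Slfn4 (4.64), and Slfn3 (-0.84) and Slfn9 (-0.88) fell on both scales. Factors of the interferon pathway rose: Irf7, the amplifier of the interferon response, from 296, 145 and 180.3 to 2301, 2288 and 2313 CPM (3.53 ± 0.29, adjusted p = 4.09e-09), and Stat2 by 2.29. Irf7 in the untreated libraries spread over a wide range, and the highest of them still lay below each 16 h library. Irf3 (-0.15, adjusted p = 0.163) and Irf8 (-0.16, adjusted p = 0.237) did not pass on the deposited scale, and Irf8 was called lower when only the 6 compared libraries were fitted (adjusted p = 0.0188). After scaling the difference of Irf8 was 0.30 and not called (adjusted p = 0.0687). Of 15 IRF and STAT genes 7 were called higher and 3 lower (11 and 2 after scaling). Among the interferon receptors, Ifngr2 (1.11), Ifnar1 (0.99) and Ifnar2 (0.53) rose and Ifngr1 (-1.33, adjusted p = 2.13e-08) fell, on both scales.

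Feedback genes of cytokine receptors were high at 16 h. Socs3, the inhibitor of IL-6 and G-CSF receptor signalling, was at 4.82, 3.67 and 3.6 CPM untreated, 1857 ± 22.7 CPM at 4 h and 703, 684 and 699 CPM at 16 h (7.12 ± 0.12, adjusted p = 6.47e-18). Socs1 rose by 3.61, Usp18, which blocks the interferon receptor, by 3.72, and Jak2 by 2.90. In all, 6 of 13 SOCS and JAK genes were called higher and 3 lower (8 and 2 after scaling), with Socs6 (-1.41) and Socs7 (-0.69) lower on both.

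Nearly all genes of antigen presentation by class I rose, and most of class II were not called. Of 20 class I and peptide loading genes 19 were called higher, and Erap1 alone was called lower on the deposited scale (-0.34, adjusted p = 0.000473), which was 0.12 and not called after scaling. H2-Q6, a non-classical class I gene, went from 15.7, 12.7 and 15 to 319, 265 and 334 CPM (4.31 ± 0.21, adjusted p = 4.66e-12), and H2-T22 from 78.8 ± 5.46 to 849 ± 24.4 CPM (3.41). Tap1, the peptide transporter, rose by 2.02 and Psme2, the proteasome activator, by 1.89. B2m, the light chain of class I, was at 2566, 2202 and 2127 CPM untreated and 4872, 4828 and 4603 CPM at 16 h (1.06 ± 0.13, adjusted p = 6.76e-07). Among class II and costimulatory genes, Cd40 (3.39) and Cd86 (2.51), ligands and receptors for T cells, rose and Cd83 (-1.86) fell. Cd74, the invariant chain, was at 270.3, 304 and 389.8 CPM untreated and 158, 162 and 224 CPM at 16 h (-0.82 ± 0.45, adjusted p = 0.105). After scaling its difference was -0.36 (adjusted p = 0.511), and the libraries of the times overlapped. On the deposited scale it was called with only the 6 compared libraries in the fit (adjusted p = 0.000309). With the replicate number as a block its adjusted p was 1.28e-07, and 7 instead of 2 of 15 tested members were then called lower. Without the block 4 of the 15 were called higher, and after scaling 6 higher and 2 lower.

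Enzymes that act on arginine, itaconate and prostaglandins gave some of the largest differences, at different times. Nos2, the inducible nitric oxide synthase, was at 0.562, 0.841 and 0.801 CPM untreated, 1876, 1896 and 1948 CPM at 4 h and 348, 342 and 399 CPM at 16 h (7.71 ± 0.15, adjusted p = 4.28e-17; 16 h minus 4 h -2.39). Arg1, the arginase that competes with it for arginine, was at 0.241, 0.535 and 0.2 CPM untreated, 0.26, 0.304 and 0.223 CPM at 4 h and 147, 210.2 and 170.1 CPM at 16 h. The 4 h libraries overlapped the untreated ones, and the 16 h libraries lay far above both (7.05 ± 0.22, adjusted p = 1.98e-14; 16 h minus 4 h 7.12, adjusted p = 1.96e-14). Slc7a2, the arginine importer, rose from 32.5 ± 7.58 to 1181 ± 56.3 CPM (5.17), and Ass1, which regenerates arginine from citrulline, by 3.43. Gch1, which makes the cofactor of nitric oxide synthase, rose by 2.40. The polyamine genes Sms (-2.40) and Srm (-1.52) fell. Of 12 genes in this list 7 were called higher and 4 lower (8 and 3 after scaling).

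In the prostaglandin pathway Ptges and Ptgs2 rose, and Ptgs1 and Hpgd fell. Ptges, the inducible prostaglandin E synthase, was at 1.28, 1.68 and 1.27 CPM untreated and 541, 524 and 547 CPM at 16 h (7.81 ± 0.15, adjusted p = 4.28e-17), above its 4 h level (258 ± 2.58 CPM). Ptgs2, the inducible cyclooxygenase, stood at 6.67 ± 1.72, 6072 ± 229.9 and 386 ± 27.9 CPM at 0, 4 and 16 h. Ptgs1, the constitutive cyclooxygenase, fell from 55.6, 72.2 and 76.1 to 3.62, 4.75 and 4.9 CPM (-3.66 ± 0.15, adjusted p = 5.34e-13). Alox5 (-2.81), Alox5ap (-1.64) and Ltc4s (-2.40), which make leukotrienes, fell, as did Hpgd and Hpgds (-1.71). In all, 4 of 15 were called higher and 8 lower (5 and 7 after scaling).

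Most glycolysis genes rose, and the TCA cycle and respiratory chain lists had medians close to that of all genes. Of 30 glycolysis and HIF-1 genes 22 were called higher and 5 lower (23 and 3 after scaling), with a median of 1.01. Pfkfb3, which makes the activator of phosphofructokinase, was at 32.6, 26.3 and 27.6 CPM untreated and 846, 804 and 917 CPM at 16 h (4.85 ± 0.13, adjusted p = 3.02e-15). Slc16a3, the lactate exporter, was at 31.1, 35.2 and 32.8 CPM untreated, 19.4 ± 1.99 CPM at 4 h and 273, 338 and 313 CPM at 16 h (3.18 ± 0.15, adjusted p = 3.83e-12). Slc2a1, the main glucose importer, rose by 2.23, Hif1a by 1.68 and Bnip3, a mitophagy receptor under hypoxia control, by 2.24. Against 4 h, 23 of the 30 were higher and 5 lower (19 and 7 after scaling), beside 51.0% and 22.1% of all tested genes (33.0% and 36.6%). Slc2a3 (-1.13), Aldoc (-1.11) and Pfkm (-0.96) fell on both scales.

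Of 25 TCA cycle genes 23 were called lower on the deposited scale, but after scaling 9 were lower and 4 higher (median -0.54 and -0.08). The respiratory chain did the same, with 27 of 32 lower and 1 higher before scaling, and 7 and 5 after it (median -0.48 and -0.02). A few enzymes fell by more than the shift of all genes. Suclg2, a subunit of the GTP-forming succinyl-CoA ligase, went from 32.3, 30.8 and 33.4 to 4.97, 4.62 and 4.28 CPM (-2.56 ± 0.13, adjusted p = 7.47e-12; -2.12 after scaling). Idh2, the mitochondrial NADP-linked isocitrate dehydrogenase, fell from 86.9 ± 0.83 to 18.9 ± 1.34 CPM (-2.14), and Mdh1 from 214 ± 9.86 to 63.8 ± 8.34 CPM (-1.74). Ndufa4 was the respiratory chain member with the largest fall (-1.56, adjusted p = 3.04e-10), and Cycs, which encodes cytochrome c, was the member called higher on the deposited scale (0.69, adjusted p = 0.00019).

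**Figure D3:**
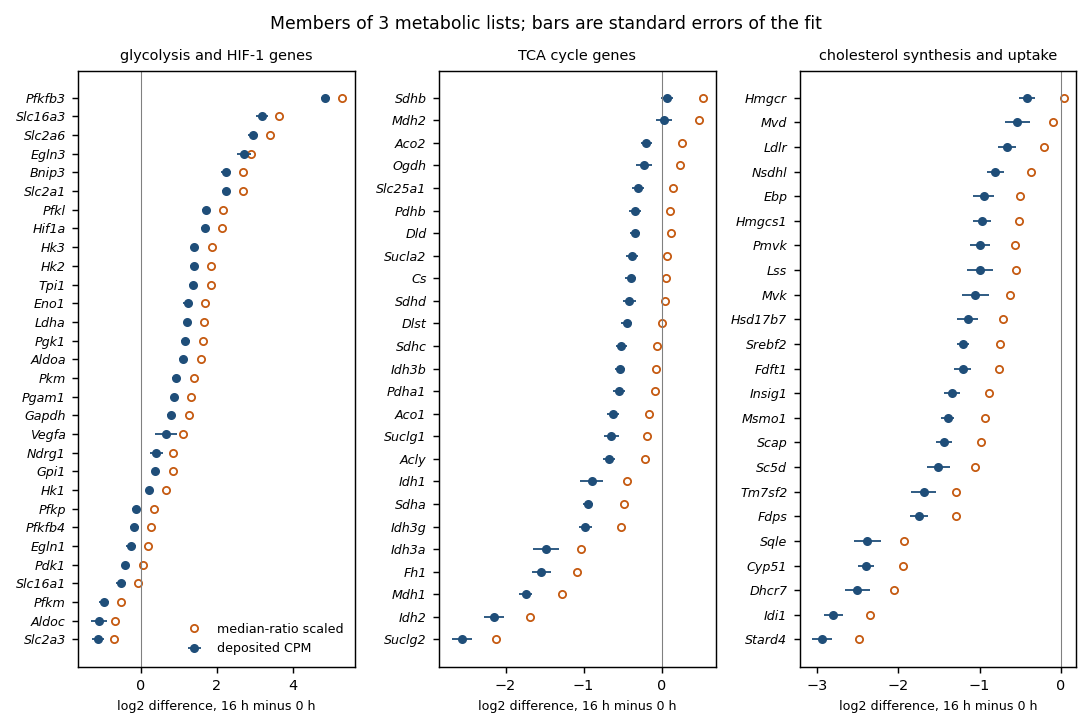
Log2 differences between 16 h and 0 h (x axes) of tested members of the glycolysis, TCA cycle and cholesterol lists (1 cholesterol member not drawn), filled points for deposited CPM with the standard error of the fit and open points for median-ratio scaled CPM. Most glycolysis members lie right of 0 on both scales, most TCA members cross toward 0 after scaling, and most cholesterol members stay left of 0.

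Cholesterol synthesis genes fell together. All 24 tested members were called lower on the deposited scale and 21 after scaling, with medians of -1.27 and -0.83; 56.5% and 33.9% of all tested genes were. Idi1 went from 68.7, 85.2 and 77.1 to 10.1, 10.2 and 10.2 CPM (-2.80 ± 0.12, adjusted p = 7.18e-13), and Cyp51, the lanosterol demethylase, from 66.7 ± 3.86 to 11.8 ± 0.658 CPM (-2.40). Stard4, a carrier of cholesterol in the cytosol (-2.94), and Sqle, the squalene epoxidase (-2.38), fell as well. Hmgcs1, an early enzyme of the pathway, was at 67, 71 and 74.5 CPM untreated and 40.1, 34 and 33.2 CPM at 16 h (-0.97 ± 0.12, adjusted p = 6.24e-07; -0.51 after scaling).

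The promoter of Hmgcs1 is shown as the only member whose window holds the sterol element searched. It lies at GRCm38.p6 chr13:119690101-119690380, plus strand, with 250 bases before and 30 after the start. Capitals mark the element TCACNCCAC, at position 114, and the CCAAT box, searched as ATTGG on either strand, at positions 14, 75, 206 and 261.
Hmgcs1: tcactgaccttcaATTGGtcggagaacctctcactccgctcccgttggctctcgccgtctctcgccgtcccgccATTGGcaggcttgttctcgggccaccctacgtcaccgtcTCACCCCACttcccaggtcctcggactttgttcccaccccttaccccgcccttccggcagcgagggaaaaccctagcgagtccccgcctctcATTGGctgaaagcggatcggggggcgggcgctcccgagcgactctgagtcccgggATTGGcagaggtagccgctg
The sterol element was found in 1 of the 17 genes with a window (5.88%), in 1.36% of tested genes with a window and in 1.24% of all windows. The CCAAT box was found in 16 of the 17 (94.1%), in 43.4% of tested genes and in 37.4% of all windows.

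Lipid export and fatty acid genes did not move as one. Abca1, the cholesterol exporter, rose from 129.6, 95 and 135 to 421, 453 and 468 CPM (1.91 ± 0.24, adjusted p = 1.35e-06), and Nr1h3, which encodes the sterol receptor LXR alpha, from 24.4, 20.1 and 25.5 to 214, 192 and 216 CPM (3.10 ± 0.14, adjusted p = 1.7e-12). Both were higher than at 4 h (1.96 and 3.86). Ch25h, whose product 25-hydroxycholesterol blocks sterol synthesis, stood at 16.3 ± 5.77, 963 ± 141 and 33.4 ± 4.75 CPM at 0, 4 and 16 h (1.05 against untreated, adjusted p = 0.0162; 0.97 and 0.76 without 16 h replicate 1 or untreated replicate 3, adjusted p = 0.051 and 0.0954). Fasn, the fatty acid synthase (153 ± 14.3 to 17.5 ± 2.12 CPM, -3.05), and the desaturases Fads2 (-3.72) and Fads1 (-2.39) fell. Abcg1 stood at -0.07 (adjusted p = 0.838) and was not called on either scale. Of 19 genes 3 were called higher and 12 lower (5 and 9 after scaling).

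Among iron genes, Fth1 and Hmox1 rose and the importer Tfrc and exporter Slc40a1 fell. Fth1, the heavy chain of ferritin, was at 7545, 6869.7 and 6625 CPM untreated, 6927 ± 226 CPM at 4 h and 28718, 30932 and 28446 CPM at 16 h, the largest gain in CPM of any named gene (2.07 ± 0.11, adjusted p = 2.69e-11). Ftl1, the light chain, was at 7866, 8384 and 8069 CPM untreated and 6519.6, 6667 and 6855 CPM at 16 h; its log2 difference of -0.28 (adjusted p = 0.026) became 0.18 and lost its call after scaling (adjusted p = 0.173). It also lost the call without 16 h replicate 1 or 2 or untreated replicate 2 or 3 (adjusted p from 0.0561 to 0.0798). Hmox1, the inducible haem oxygenase, was at 292, 274 and 223 CPM untreated, 53.8, 71.3 and 55.8 CPM at 4 h and 2531, 2593 and 2419 CPM at 16 h. The 4 h libraries lay below and the 16 h libraries above the untreated ones (3.26 ± 0.13 at 16 h, adjusted p = 5.46e-13; 16 h minus 4 h 5.37). Slc11a1, the gene of NRAMP1, rose from 135 ± 3.56 to 892 ± 16.9 CPM (2.72). Cp, which encodes ceruloplasmin, rose from 4.52 ± 1.38 to 373 ± 34.8 CPM (6.11). The importer Tfrc, the transferrin receptor (-1.91, adjusted p = 1.37e-07), and the exporter Slc40a1, ferroportin (72.7 ± 6.32 to 23.7 ± 4.69 CPM, -1.60, adjusted p = 3.44e-06), both fell; ferroportin had been at 1.25 ± 0.23 CPM at 4 h. Of 20 tested metal genes 12 were called higher and 7 lower (13 and 6 after scaling).

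Of 25 oxidant and antioxidant genes 15 rose and 6 fell (19 and 4 after scaling). Sod2, the mitochondrial superoxide dismutase, was at 54.8, 56.3 and 48.2 CPM untreated and 1387, 1381 and 1329 CPM at 16 h (4.66 ± 0.07, adjusted p = 3.08e-18). Sod1, the cytosolic form, fell from 188 ± 15.5 to 90.2 ± 1.23 CPM (-1.05). Cybb, the catalytic subunit of the phagocyte oxidase, rose from 932 ± 68.7 to 3608 ± 175 CPM (1.95), Prdx5 by 2.95 and Gsr, glutathione reductase, by 2.05. Gclc, the rate-limiting enzyme of glutathione synthesis, fell (-1.57, adjusted p = 1.99e-08).

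Cell cycle genes had the lowest medians of the lists described here. All 31 mitosis genes were called lower on both scales with log2 differences of at least 1 in size, beside 12.8% of all tested genes, with a median of -4.81 (-4.36 after scaling). Mki67, the proliferation marker Ki-67, was at 784, 903 and 1008 CPM untreated and 31.8, 26.5 and 30.9 CPM at 16 h (-4.87 ± 0.22, adjusted p = 1.53e-12). Ccna2, cyclin A2, was at 226, 288 and 282 CPM untreated, 25.2, 32 and 31.5 CPM at 4 h and 4.72, 3.24 and 3.04 CPM at 16 h, with no overlap between any 2 of the times (-5.84 ± 0.26, adjusted p = 1.31e-12). Top2a, the topoisomerase of dividing cells, went from 680.1, 827 and 869 to 19.6, 15.3 and 15.4 CPM (-5.48 ± 0.26, adjusted p = 3.83e-12). Against 4 h, 29 of the 31 were lower and 0 higher at 16 h. Of 34 replication and G1/S genes 32 were called lower on either scale, with a median of -3.73. Rrm2, which makes deoxyribonucleotides, fell from 303 ± 35.1 to 5.72 ± 0.819 CPM (-5.50). Ccne2, cyclin E2 (-5.17), and Mcm7, a subunit of the replicative helicase (-4.78), fell too. Ccnd2, cyclin D2, was the member called higher on the deposited scale (26.4 ± 4.6 to 58.5 ± 4.77 CPM, 1.13, adjusted p = 3.35e-05), after 798 ± 41.3 CPM at 4 h, and Ccnd3 did not pass on the deposited scale (0.15, adjusted p = 0.272; 0.0319 with only the 6 compared libraries).

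Cenpf, a kinetochore protein of late cell cycle, was at 106, 142 and 157 CPM untreated and 2.06, 1.19 and 2.97 CPM at 16 h (-5.49 ± 0.32, adjusted p = 5.29e-11), and its promoter is shown for the mitosis genes. The run covers GRCm38.p6 chr1:189688057-189688336, minus strand, with 250 bases before and 30 after the start. Capitals mark the cell cycle homology region, searched as TTTGAA on either strand, at position 253, and the CCAAT box, here on the opposite strand at positions 119 and 180.
Cenpf: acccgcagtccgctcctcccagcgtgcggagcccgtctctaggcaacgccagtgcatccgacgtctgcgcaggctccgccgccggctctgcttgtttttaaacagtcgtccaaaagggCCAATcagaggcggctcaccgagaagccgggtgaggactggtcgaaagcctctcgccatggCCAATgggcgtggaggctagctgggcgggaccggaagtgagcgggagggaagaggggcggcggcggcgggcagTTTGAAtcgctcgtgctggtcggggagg
TTTGAA was found in 20 of the 26 mitosis genes with a window (76.9%), in 14.4% of tested genes with a window and in 17.9% of all windows. The CCAAT box was found in 21 of the 26 (80.8%), beside the same 43.4% and 37.4%.

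Inhibitors of the cell cycle did not rise as a group. Cdkn1a, which encodes p21, was at 237, 252 and 248 CPM untreated, 1186 ± 59.3 CPM at 4 h and 358, 413 and 357 CPM at 16 h (0.61 ± 0.11, adjusted p = 5.37e-05). Cdkn2c, which encodes p18, fell from 162 ± 22.4 to 5.3 ± 1.27 CPM (-4.70), and Cdkn1c (-1.84) and Sesn1 (-2.87) fell too. Of 22 inhibitors and p53 targets 6 were called higher and 12 lower (8 and 8 after scaling). Among apoptosis regulators 14 of 23 were higher and 5 lower (17 and 2 after scaling): the survival genes Traf1 (4.09), Birc3 (2.76) and Cflar (2.52) and the death genes Tnfsf10 (3.21), Fas (2.28) and Mlkl (2.27) rose, and Bcl2 fell from 23.4 ± 2.09 to 1.81 ± 0.367 CPM (-3.12, adjusted p = 2.51e-10). Of 18 inflammasome and pyroptosis genes 11 were higher and 5 lower (13 and 4 after scaling). Casp4, the sensor of LPS in the cytosol, rose by 2.88, Casp1 by 1.78 and Gsdmd, the pore of pyroptosis, by 1.41, while Nlrp1b fell (-1.72, adjusted p = 1.47e-06).

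Macrophage identity genes moved in both directions. Csf1r, the receptor of M-CSF, was at 2929, 2949.8 and 3055 CPM untreated and 1831, 1903 and 1888 CPM at 16 h (-0.67, adjusted p = 6.68e-07; -0.20 and not called after scaling, adjusted p = 0.0826). Itgam, which encodes CD11b, rose from 1314 ± 37.9 to 2742 ± 142 CPM (1.06) and Fcgr1, the high-affinity IgG receptor, from 256 ± 47.3 to 1868 ± 65.5 CPM (2.88). Trem2, a lipid-sensing receptor, fell from 623, 633 and 599.9 to 111, 93.3 and 115 CPM (-2.53 ± 0.18, adjusted p = 5.78e-10). The transcription factor genes Cebpa (177 ± 14, 1.18 ± 0.0374 and 19.3 ± 2.6 CPM at 0, 4 and 16 h; -3.13 against untreated) and Pparg (-2.91) fell, and Cebpb (2.31) rose. Of 25 identity genes 11 were called higher and 13 lower on the deposited scale, and 12 and 5 after scaling. Among Fc receptors and integrins, Fcgr4 (4.14), Fcgr2b (2.88) and Itga5 (2.27) rose and Itga6 (-2.93) and Itgb5 (-2.11) fell, 12 of 20 being higher and 6 lower (14 and 4 after scaling).

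Most genes in the list of alternative activation and scavenging fell. Arg1, which rose (7.05), was listed with the arginine enzymes and is not counted here. Mrc1, the mannose receptor CD206, was at 1181, 981 and 1032 CPM untreated, 591, 505 and 489.6 CPM at 4 h and 37.2, 29.4 and 31.8 CPM at 16 h (-4.98 ± 0.11, adjusted p = 2.18e-16), most of it after 4 h (16 h minus 4 h -3.97). Gas6, a bridge to dying cells, fell from 649, 585 and 511 to 31.5, 27.5 and 28.6 CPM (-4.26 ± 0.11, adjusted p = 2.37e-15). F13a1 (-3.46), Cd163, the haemoglobin receptor (-2.55), and Stab1 (2673 ± 133 to 589 ± 27.4 CPM, -2.18) fell as well. Msr1, a scavenger receptor for modified lipoprotein, went the other way (585 ± 58 to 1490.3 ± 8.02 CPM, 1.35, adjusted p = 6.92e-10). Cd36, another of that kind, stood at -0.23 (adjusted p = 0.0611; 0.00477 with the replicate block, 0.0238 with only the 6 compared libraries). After scaling Cd36 stood at 0.23 (adjusted p = 0.101). Of 22 tested members 15 were called lower and 3 higher (13 and 3 after scaling), with a median of -1.33. Lyve1 did not reach the filter on low values and Retnla was not analysed here.

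Lysosomal genes were mixed and depended on the scale. Of 28 hydrolases and pumps 7 were called higher and 15 lower, and 10 and 6 after scaling. Ctsd (9931 ± 915 to 5513 ± 344 CPM, -0.85, adjusted p = 4.64e-06; -0.38 after scaling) and Lipa, the acid lipase (1572 ± 8.75 to 381 ± 15.6 CPM, -2.04), fell on both scales. Ctsb (11968 ± 687 to 8196 ± 494 CPM, -0.55) was called lower on the deposited scale and not after scaling (-0.08, adjusted p = 0.679). Ctsz (1.58) and Ctsc (1.51) rose on both. Ctss and Ctsl, among the most abundant transcripts that passed on neither scale, stood at -0.22 (adjusted p = 0.341; 0.0123 with the replicate block, 0.04998 with only the 6 compared libraries) and -0.23 (adjusted p = 0.14; 0.0194 with the block, 0.0157 with only the 6 libraries). After scaling Ctss stood at 0.24 (adjusted p = 0.376). Apoe, an abundant lipid carrier, fell from 7179 ± 701 to 3489 ± 50.8 CPM (-1.04, adjusted p = 4.55e-05).

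Matrix and coagulation genes had wide differences. Mmp13, a collagenase, was at 11 ± 0.598 CPM untreated and 1032 ± 28.2 CPM at 16 h (6.43 ± 0.20, adjusted p = 2.09e-14), and Mmp14 rose from 48 ± 5.44 to 1272 ± 39.3 CPM (4.70). Plau, the urokinase, fell from 311, 294 and 272 to 15.6, 11.9 and 16.8 CPM (-4.23 ± 0.24, adjusted p = 3.79e-11). Procr, the protein C receptor, rose by 5.44 and F10, coagulation factor X, by 4.40. In all, 16 of 26 were called higher and 5 lower (21 and 4 after scaling). Collagen and other stromal genes, whose sum is given above, share the matrix with these; Col3a1 was called higher (1.38, adjusted p = 0.0223) and lost the call without 16 h replicate 2 or 3 or untreated replicate 1 (adjusted p from 0.0573 to 0.0808). With the replicate block 6 of 12 tested stromal markers were called higher, against 2 without it. Their part in the matrix genes was not tested.

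NAD-consuming enzymes of the cell surface rose. Cd38, an NAD hydrolase, was at 1.04, 0.382 and 0.534 CPM untreated, 44.2 ± 4.84 CPM at 4 h and 285, 331 and 290.3 CPM at 16 h (7.54 ± 0.28, adjusted p = 2.15e-13), and its paralogue Bst1 at 8.75, 7.72 and 6.61 and 135, 203 and 153 CPM untreated and at 16 h (4.23 ± 0.16, adjusted p = 1.87e-13). Nampt, the salvage enzyme that rebuilds NAD, rose by 0.97, and Parp1, a nuclear NAD consumer, fell (-2.23, adjusted p = 2.44e-12). Ido2 was listed at the table's lowest value in each untreated library and at 1.53 ± 0.252 CPM at 16 h. In the list 6 of 12 were called higher and 3 lower (6 and 2 after scaling).

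Immediate early genes, which respond within the first hour, were not uniformly high at 16 h. Batf (3.49), Ier3 (3.36), Batf2 (3.30) and Junb (1.75) were called higher, and Myc (19.3 ± 1.86 to 4.03 ± 0.639 CPM, -2.02), Egr2 (-1.93) and Nr4a1 (-1.74) lower. The list held 11 higher and 13 lower of 30 (14 and 8 after scaling). Of the chaperone and stress genes, the inducible Hspa1a (4.34, 3.36 and 5 CPM untreated, 61.9, 55.2 and 61.2 CPM at 16 h, 3.54, adjusted p = 3.46e-10) and Hspa1b (3.13) rose, as did Atf4 (1.34) and Ddit3 (1.76) of the integrated stress response. The serine metabolism genes Psat1 (-2.23), Shmt2 (-2.17) and Phgdh (-2.10), known targets of ATF4, fell (largest adjusted p of the 3 = 2.46e-06). Over the 33 genes 10 were higher and 8 lower, and 22 and 4 after scaling.

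Clock and chromatin genes moved in both directions. The clock output genes Dbp (-1.69) and Per3 (-1.49) and the factor Rora (-1.76) fell, and Nfil3 (1.15) and Cry1 (0.64) rose, 4 of 14 tested members being higher and 6 lower (5 and 6 after scaling). Among chromatin regulators Kdm6b, an H3K27 demethylase, rose from 3.79 ± 1.69 to 23.1 ± 3.77 CPM (2.38), and Ezh2, the methyltransferase of the same residue, fell from 86.7 ± 4.31 to 8.71 ± 0.73 CPM (-3.18). Dnmt1, the maintenance DNA methyltransferase of dividing cells, fell too (345 ± 15.7 to 64.4 ± 6.89 CPM, -2.41). In that list 5 of 18 were higher and 7 lower (9 and 5 after scaling).

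Genes of the translation machinery fell by similar amounts. All 40 ribosomal protein and elongation factor genes were called lower, 37 after scaling, in a narrow range from -1.68 to -0.52 (median -1.03; -0.57 after scaling). Rpsa went from 871, 994 and 895 to 286, 294 and 276 CPM (-1.68 ± 0.12, adjusted p = 4.06e-10), and Eef1a1, elongation factor 1 alpha, from 7959.6 ± 186 to 4098 ± 141 CPM (-0.96). Genes often used as references did not hold their level. Gapdh rose from 1242, 1339 and 1262 to 2097, 2379.9 and 2175 CPM (0.79, adjusted p = 5.77e-06) and Hprt fell from 259, 259.7 and 238 to 54.2, 64.1 and 58.1 CPM (-2.08, adjusted p = 9.41e-13), on both scales. Of 15 such genes 5 were called higher and 9 lower (6 and 9 after scaling), and Ywhaz was the member that was not called on the deposited scale (-0.04, adjusted p = 0.59; 0.42 and called after scaling).

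Elf4, the ETS factor that the series is about, was slightly higher at 16 h. It was at 96.4, 108 and 112 CPM untreated, 74.3, 64.6 and 67.1 CPM at 4 h and 129, 134 and 131 CPM at 16 h, and the 16 h libraries lay above all untreated ones (0.32 ± 0.11, adjusted p = 0.0137; 0.78 after scaling, adjusted p = 4.32e-05). Without untreated replicate 1 the difference was 0.26 and missed the threshold (adjusted p = 0.0683). Of 13 tested ETS factors 4 were called higher and 7 lower (6 and 4 after scaling). Ets2 (0.81), Spi1, which encodes PU.1 (0.72), and Etv6 (0.60) were the others called higher, and Ets1 (-1.20), Etv3 (-1.06) and Gabpa (-0.84) fell on both scales.

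**Figure D4:**
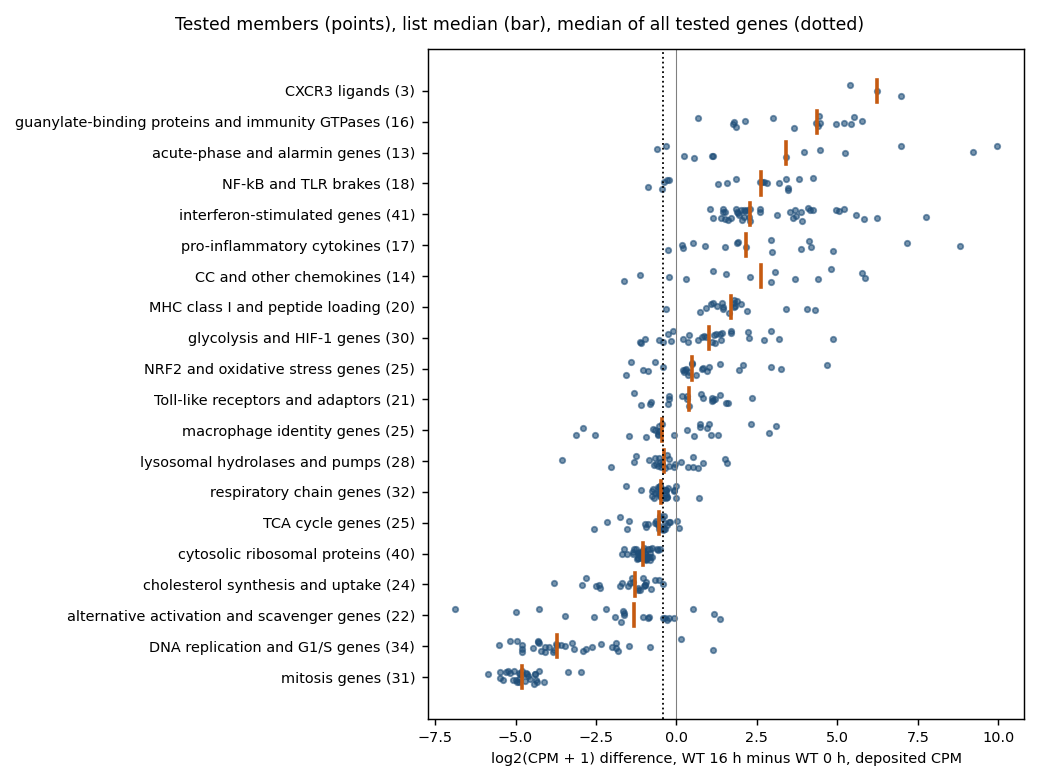
Log2 difference between 16 h and 0 h on the deposited scale (x axis) for each tested member of 20 gene lists (y axis, tested members in brackets), with the list median as a bar and the median of all tested genes, -0.41, as a dotted line. Interferon-stimulated genes lie right of 0 and mitosis genes left of the dotted line in each member, while lysosomal, respiratory chain and TCA genes lie about the dotted line.

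Set against 4 h, the 16 h libraries had 6153 genes (51.0%) higher and 2669 (22.1%) lower, and 3981 (33.0%) and 4409 (36.6%) after scaling; the scaling factors of the 4 h libraries were 0.711 to 0.747. This comparison shares the 16 h libraries with the one above. Cytokine, interferon and brake genes were mostly lower than at 4 h, at 14 of 17, 27 of 41 and 13 of 18 members, and 15, 31 and 15 after scaling. Glycolysis and oxidative stress genes were mostly higher, at 23 of 30 and 17 of 25 (19 and 14 after scaling). Nos2 (-2.39) and Arg1 (7.12), whose enzymes share a substrate, differed from 4 h in opposite directions.

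The KO macrophages, which share no library with the WT comparison, gave calls of the same direction for the genes with the largest WT differences. All 15 of the largest WT rises were called higher in KO cells, with log2 differences from 4.40 to 9.41, and all 15 of the largest falls lower, from -6.87 to -3.94; over all tested genes 2149 (17.8%) were called higher and 6044 (50.1%) lower in KO cells. Lcn2 stood at 9.97 in WT and 9.41 in KO cells, Il1b at 8.81 and 8.63, Arg1 at 7.05 and 7.42, and Ccna2 at -5.84 and -4.40. Other rises lay further apart: Ifit1bl1, with the lowest KO value of the 15, stood at 7.75 and 4.40, and Il1rn at 7.38 and 5.74. Elf4 itself differed by 0.32 and 0.42, the KO value resting on those remaining reads. Whether the WT and KO differences differ from each other was not tested.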

How the data were processed

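The authors' deposited table of the macrophage time course holds CPM per gene, per its file header, for 18 libraries; each header also carries a deidentified mouse number that differs between libraries. The submitters' processing notes name the build mm10 and, with no roles, Bowtie2, BWA, DESeq2, Partek 10.0.21.0411 and MACS2; which of them made this table, the counting of reads shared between gene copies and the strandedness are not given in the sources used here. The table has 14897 rows, with 1 gene repeated once at the same values and kept once, and a lowest value of 0.0001. The CPM sum to 951209 to 954161 in the 6 libraries. Small values were whole multiples of 1 read in 95.4 to 96.3% of cases (within 0.1 read) in the 6 libraries, so counts could not be recovered and no count model was run.

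From the CPM, log2(CPM + 1) was fitted with limma 3.58.1 in R 4.3.3 (lmFit, eBayes with trend) over 18 libraries with 1 mean per genotype and time, so a p-value rests on the spread pooled over all groups (17.3 degrees of freedom). A gene was tested if 3 or more libraries reached 1 CPM. Differences are on the log2(CPM + 1) scale, which understates changes of low genes. Median-ratio factors came from 11786 genes above the lowest value. Gene lists hold 56 sets; the members, lists and tests were chosen with earlier results of these data known. Genes were named by rule: key genes, the 15 largest rises and falls at a mean of at least 5 CPM, the 12 largest gains and losses in CPM, up to 8 called and 3 uncalled members per list, and 5 abundant uncalled genes; 27 genes outside the rule (Aldoc, Alox5ap, Ccl6, Ccnd2, Cdkn1a, Ch25h, Cry1, Csf1r, Cx3cl1, Cyld, Erap1, Gapdh, Hmgcs1, Irf3, Itgb5, Ly96, Mki67, Mlkl, Msr1, Pfkm, Ppbp, S100a9, Sigirr, Slc2a3, Slc40a1, Sod1 and Srm) were named after their values were seen. Alternatives were the scaling, the pseudocount, the filter, the libraries fitted, the replicate number as a block and each replicate left out. Replicate numbers come from the sample titles. Same-numbered libraries of 0 and 16 h deviated together from their group means (r = 0.21, 0.11 and 0.31 across genes, differing numbers -0.23 to 0.013). The labels do not say what a shared number marks, and the mouse numbers differ. The main fit does not use the numbers, and the block does. The cause of the shared deviation was not tested. Promoter windows are RefSeq's of GRCm38.p6 (250 bases before to 50 after a start), matched by symbol. Values of 3 list members are not reported here, though they stay in the list counts.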

Additional observations from a re-analysis of the deposited data

Results flagged for a closer look

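On the deposited scale, 2 of the named genes had all WT libraries of 16 h on one side of those of 0 h. In KO cells all libraries of 16 h lay on the other side of those of 0 h. The scaled values were not searched in this way. Scaling moved a typical gene up by 0.44 in WT, which is more than the size of the WT difference of Egln1. The opposite direction of Egln1 therefore rests on the deposited scale. The difference between the genotypes was not tested. Egln1, which encodes the oxygen sensor PHD2, had a log2 difference of -0.26 in WT (adjusted p = 0.0816, 0.00328 with only the 6 compared libraries in the fit, 61.6 ± 3.83 to 51.3 ± 1.99 CPM) and 0.60 in KO cells (adjusted p = 0.000523, 65.5 ± 13.6 to 99 ± 10.8 CPM; SD, n = 3). Kdr, a receptor of vascular growth factor listed among endothelial markers, had 0.48 in WT (adjusted p = 0.0249, 20.3 ± 1.17 to 29 ± 5.29 CPM) and -0.99 in KO cells (adjusted p = 0.000127, 17.5 ± 4.27 to 8.35 ± 2.51 CPM). The WT call of Kdr was lost without 16 h replicate 3 or untreated replicate 2 or 3 (adjusted p from 0.0607 to 0.13).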

How the results depend on the processing

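Median-ratio scaling was the alternative that moved the counts of called genes by over 1.5 times: 4034 higher and 4085 lower against 0 h (2203 and 6818 as deposited), and 3981 higher and 4409 lower against 4 h (6153 and 2669). With each replicate left out in turn the counts were 2035 to 2091 higher and 6473 to 6587 lower against 0 h, and 5862 to 6022 higher and 2462 to 2543 lower against 4 h. With the replicate block they were 2347 and 6997 against 0 h and 6468 and 2855 against 4 h. Of 388 called genes among the 471 named, 375 kept their call in each alternative that gave a value and 13 lost it in at least 1. The block lost none of them and gave a call to 20 of the 83 uncalled genes, of which Cd74, Cd36, Ctss and Ctsl are given above with their blocked p; it changed the call of no other gene given in the report. Fits of only the 6 compared libraries or the 9 WT libraries lost no call and gave 30 and 26, and 75 of the 83 uncalled genes gained a call in at least 1 alternative. Scaling lost 9 calls, gave 54, and reversed Ftl1 (-0.28 to 0.18); of the genes named outside the rule it reversed Cyld (-0.22 to 0.23) and Erap1 (-0.34 to 0.12). The cause was not tested. In all, 10 of the named genes have no value at a filter of 5 CPM. Count tests on recovered reads were listed as alternatives and not run, since the values are not all whole reads. A single read is worth 0.066 to 0.081 CPM in these libraries, which limits genes under about 1 CPM such as Ifnb1.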
